A study of Mus musculus with 12 samples.

Results

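The loss of both cryptochrome genes was compared with their partial loss in mouse embryonic fibroblasts (MEFs) that received no hormone, across every gene that the arrays could measure in these cells. The cells of both groups were primary MEFs, connective-tissue cells grown out of E15.5 embryos of the C57BL6/J strain. In the double knockout (dKO) group both copies of Cry1 and of Cry2 were deleted (Cry1-/-Cry2-/-). In the control group 1 copy of each gene was deleted (Cry1+/-Cry2+/-), although the design text of the series calls these cells wild type. A difference given here is thus one between cells with no copy and cells with 1 copy of each gene. Both groups had been kept for 16 hours with ethanol (EtOH), the solvent of dexamethasone (Dex), and each was measured on 3 arrays labelled as biological replicates. The series as a whole asks how cryptochromes repress the glucocorticoid receptor, and the vehicle arrays give the genotype difference before any added hormone. The series holds 6 further arrays of the same genotypes after 16 hours with 1 µM Dex, a synthetic glucocorticoid. The sources used here do not say how many embryos or cultures stood behind a replicate. The genotype therefore cannot be told apart from differences between embryos or cultures.

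A probe entered when its detection p, the comparison of its signal with negative control beads of the same array, was under 0.01 on at least 3 of the 6 EtOH arrays. This held for 11470 of 25697 probes (44.64%), and 10221 of them were above background on all 6 arrays. Reading each gene from its brightest such probe left 8058 of the 16593 genes that the array names. At the edge of the rule, 445 member probes were above background on exactly 3 arrays and had a median log2 signal of 6.17. Just outside it, 463 probes were above background on 2 arrays, with a median log2 signal of 5.96. Since 113 member probes passed on the 3 dKO arrays alone and 124 on the 3 control arrays alone, such genes had to differ, and their counts support nothing by themselves.

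Cryptochromes are the strongest repressors of the circadian clock: they bind the activator pair of CLOCK and BMAL1 (the product of Arntl) at E-box elements of the DNA and stop it from switching on its targets. Among those targets are the Period genes, the nuclear receptors of the REV-ERB family and transcription factors such as DBP, which in turn act through D-box elements. REV-ERB receptors repress Arntl through RORE elements, which closes a further loop of the clock. Cryptochromes also bind nuclear receptors, the glucocorticoid receptor among them, and fibroblasts in culture keep clocks of their own that drift out of step unless a signal such as Dex resets them.

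The 6 arrays had like quality, with 43.4% to 44.9% of probes above background. Levels below are on the log2 scale, from signals with the background removed and the arrays quantile normalized, and changes are dKO minus control on the log2 scale with the standard error (SE) of a limma model over all 12 arrays. Replicate 3 of the dKO group stood apart from the other two. In a principal component analysis of the 6 arrays the first component (71.6% of the variance) divided dKO from control arrays, and on the second (15.6%) dKO replicates 1, 2 and 3 lay at 10.3, 6.33 and -24.44, whereas the controls lay between 1.325 and 4.795. The correlation between arrays was 0.9818 to 0.9943 among dKO arrays and 0.9949 to 0.9954 among control arrays. Of the 3 dKO arrays, replicate 3 was the one nearest to the control mean for 55.4% of the called genes, against 25.4% for replicate 1 and 19.2% for replicate 2. It could also be that dKO replicates 1 and 2 stand apart instead, together with replicate 3 of control MEFs in Dex. Results are therefore also given without those 3 arrays where they change.

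The genotypes differed widely without hormone. An adjusted p under 0.05 in limma (Benjamini-Hochberg over 8058 genes), here a call, was reached by 2259 genes (28.0%), of which 913 (11.3%) were higher and 1346 (16.7%) lower in dKO MEFs. Of these, 192 higher and 308 lower genes changed at least 2-fold, and the median size of a called change was 0.67 on the log2 scale. For 3542 genes (44.0%) the 3 dKO values and the 3 control values did not overlap. The median over all genes was -0.05. With each array scaled to the same median instead of quantile normalized, this median was -0.25 and the calls were 501 higher and 2612 lower, so the split into rises and falls depends on the scaling, and the changes of gene groups below are to be read against these medians. Without dKO replicate 3, 3135 genes were called, against 1484 without dKO replicate 2 and 1495 without control replicate 3. Without the 3 arrays 1437 were called, of which 1195 were among the 2259.

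**Figure D1:**
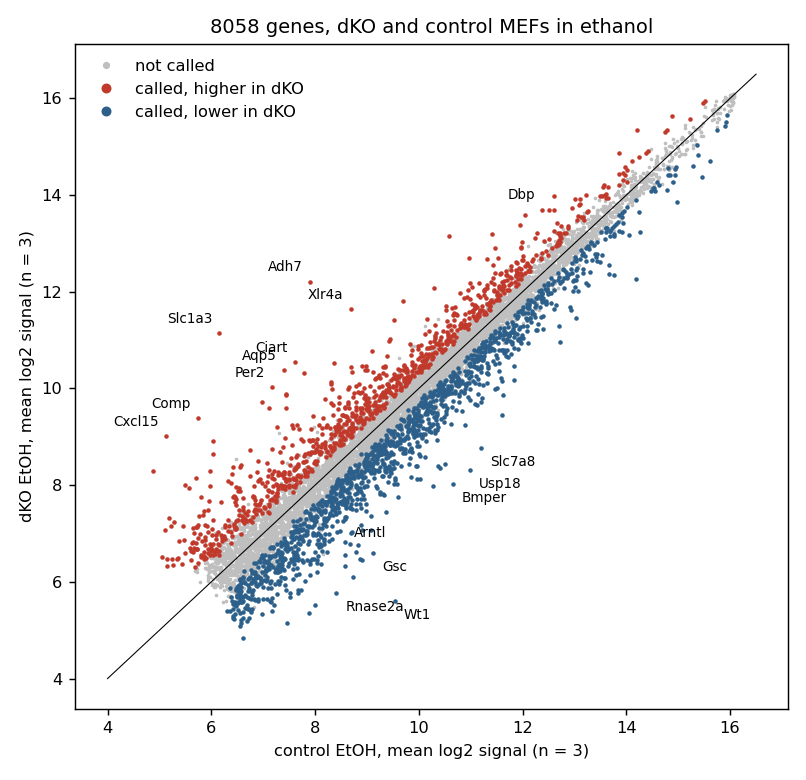
Mean log2 signal of each of the 8058 genes in dKO MEFs in EtOH (vertical axis) against control MEFs in EtOH (horizontal axis), 3 arrays each. Red points are the 913 genes called higher and blue points the 1346 called lower in dKO, and the line marks equal levels. The genes farthest above the line are Slc1a3 and Adh7, and the one farthest below is Wt1.

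The arrays could not check the deletions. No array had the Cry1 probe above background, with a mean log2 signal of 4.68 in dKO and 4.54 in control MEFs. Cry2 had log2 signals of 6.38, 6.80 and 6.70 in dKO and of 6.08, 5.90 and 6.49 in control MEFs, and its change of 0.47 ± 0.20 (SE) did not pass (adjusted p = 0.1). The 2 groups of Cry2 values overlapped. The sources used here do not place either probe relative to the deletions, so the 2 genes check nothing. Of the Y-linked genes Eif2s3y, Kdm5d and Uty, all above background on the 6 arrays, none was called.

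The output genes of the clock held some of the strongest rises. Of 10 measured genes of a list of clock outputs that respond to E-boxes or D-boxes, 7 rose and 2 fell, with a median of 0.76. Over all genes 11.3% rose and 16.7% fell, and the counts of every list below are to be read against these shares. A gene at background on every array of 1 group entered through the other group alone, so its part in a list count supports nothing. Of 60 genes at background on every control array 53 were called, and of 88 on every dKO array 82. The 3 dKO arrays agreed closely, with median deviations of the clock output list from the control mean of 0.72, 0.74 and 0.82. With median scaling 6 rose and 2 fell, with a median of 0.54, and without dKO replicate 2 or control replicate 1 there was 1 fall. For 9 of the 10 genes the groups did not overlap.

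Ciart, a repressor that acts on CLOCK and BMAL1, rose the most. Its log2 signals were 10.43, 10.57 and 10.61 in dKO and 7.62, 7.68 and 7.55 in control MEFs, a 7.56-fold rise (2.92 ± 0.12 SE, adjusted p = 4.68e-08), and its other member probe gave 2.58. Per2, the Period repressor that partners with cryptochromes, had 10.09, 9.87 and 10.15 in dKO against 7.20, 7.05 and 7.28 in control MEFs, a 7.24-fold rise (2.86 ± 0.13 SE, adjusted p = 9.21e-08), with 1.86 at its other member probe and a further probe at background on all 6 arrays. In both genes every dKO array lay far above every control array. Per1, the related Period gene, was raised less, by 0.73 ± 0.16 (SE, adjusted p = 0.00475), with 8.18, 8.35 and 8.43 in dKO and 7.69, 7.27 and 7.81 in control MEFs. Its other member probe gave 0.81 ± 0.28 (SE) without a call.

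Dbp and Tef, the measured genes of the PAR bZIP factors, which bind D-boxes, were higher. Dbp, already bright in control cells, reached 13.62, 13.77 and 13.72 in dKO MEFs, against 12.18, 12.56 and 12.40 in control MEFs, a 2.50-fold rise (adjusted p = 6.52e-06). Tef was raised 1.72-fold (0.79 ± 0.10 SE, adjusted p = 0.000201). Both had tight groups that did not overlap. Of the REV-ERB genes, Nr1d2 rose 2.21-fold, with 9.66, 9.54 and 9.54 in dKO and 8.33, 8.43 and 8.55 in control MEFs (adjusted p = 2.74e-05). Nr1d1 had 7.67, 7.82 and 8.57 in dKO and 8.19, 8.53 and 8.30 in control MEFs, and its change of -0.32 ± 0.26 (SE) did not pass (adjusted p = 0.384). Here the dKO values straddled the control values, with dKO replicate 3 the highest of the 6. The other member probe of Nr1d1 gave -0.71 ± 0.30 (SE), also without a call.

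Not every output rose. Usp2, a deubiquitinase with rhythmic transcripts, fell 2.23-fold (-1.16 ± 0.21 SE, adjusted p = 0.00171), with 8.20, 8.05 and 8.75 in dKO and 9.52, 9.44 and 9.51 in control MEFs. Nampt, the rate-limiting enzyme of NAD salvage, was lower by a small margin (-0.42 ± 0.12 SE, adjusted p = 0.0222), and Bhlhe40, a repressor that competes for E-boxes, was higher by a small margin (0.30 ± 0.09 SE, adjusted p = 0.031). Per3 was no member, since its probe was above background on 2 dKO arrays and on 0 control arrays, and Bhlhe41, Hlf and Npas2 were at background on all 6 arrays.

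Of the 4 measured genes of the positive arm and of the RORE loop, 2 rose and 2 fell. Arntl, which encodes BMAL1, had 7.12, 7.32 and 7.48 in dKO and 8.70, 8.40 and 8.63 in control MEFs, a 2.41-fold fall (-1.27 ± 0.13 SE, adjusted p = 2.87e-05). Nfil3, a repressor at D-boxes that is driven through RORE, fell as well (-0.73 ± 0.11 SE, adjusted p = 0.000458). Rora, which activates through RORE, was raised (0.93 ± 0.13 SE, adjusted p = 0.000278), and Clock changed little (0.36 ± 0.12 SE, adjusted p = 0.0407), a call that was lost with median scaling (0.10, adjusted p = 0.502) and without any single one of the 6 arrays. None of the 6 measured clock kinases and ubiquitin ligases, among them Csnk1d (0.02), Csnk1e (0.04) and Btrc (-0.45), was called by limma. Btrc alone had an unadjusted p under 0.05 (0.0457). There were 3 falls with array weights, 2 with median scaling and 1 without dKO replicate 3.

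**Figure D2:**
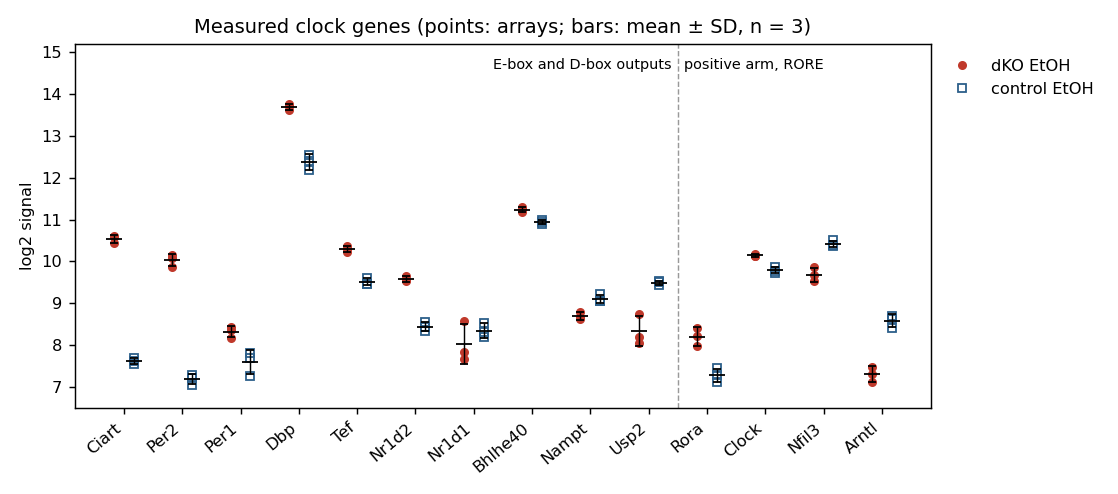
Log2 signal of the 14 measured clock genes on each dKO EtOH array (red circles, left of each pair) and control EtOH array (blue squares, right), with mean and SD of 3 arrays. Left of the dashed line are E-box and D-box outputs, right of it genes of the positive arm and the RORE loop. Ciart, Per2, Dbp and Nr1d2 lie above their controls without overlap, Arntl and Nfil3 below, and the Nr1d1 groups overlap.

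Promoter sequences of 3 of these outputs are shown because they differ in E-box content while all of them changed. Each runs from 250 bases before to 50 bases after the first listed transcription start in RefSeq (GRCm38.p6), and capitals mark the E-box letters CACGTG, which read the same on both strands. Ciart lies at chr3:95882179-95882478 on the minus strand and holds 3 matches, Tef at chr15:81802423-81802722 on the plus strand with 1 match, and Usp2 at chr9:44084670-44084969 on the plus strand with 0 matches.
Ciart: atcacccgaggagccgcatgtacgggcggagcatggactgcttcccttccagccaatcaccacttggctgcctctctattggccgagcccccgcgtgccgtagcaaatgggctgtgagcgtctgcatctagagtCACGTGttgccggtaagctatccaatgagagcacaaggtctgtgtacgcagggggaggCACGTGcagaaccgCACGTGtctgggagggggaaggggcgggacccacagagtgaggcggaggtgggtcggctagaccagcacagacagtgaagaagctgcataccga
Tef: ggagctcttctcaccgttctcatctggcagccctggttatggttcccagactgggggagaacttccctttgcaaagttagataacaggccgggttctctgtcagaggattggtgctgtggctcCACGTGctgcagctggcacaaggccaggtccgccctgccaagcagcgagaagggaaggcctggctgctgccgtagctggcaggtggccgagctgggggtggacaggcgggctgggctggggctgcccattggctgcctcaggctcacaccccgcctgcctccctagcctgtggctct
Usp2: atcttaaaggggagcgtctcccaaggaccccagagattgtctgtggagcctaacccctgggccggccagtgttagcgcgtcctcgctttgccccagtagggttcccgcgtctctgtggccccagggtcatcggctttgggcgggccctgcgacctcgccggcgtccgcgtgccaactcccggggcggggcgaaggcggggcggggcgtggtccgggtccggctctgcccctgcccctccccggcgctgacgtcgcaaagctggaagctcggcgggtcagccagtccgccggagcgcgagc

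The windows of Dbp and Nr1d2 held 0 matches of CACGTG, and the first window of Per1 held 1. That of Nr1d1 held 1 match of the related letters CACGTT, searched on both strands as CACGTT or AACGTG. The D-box letters TTATGTAA or TTACGTAA, searched on both strands, were in none of these windows. Of 32851 RefSeq promoters of this length, 7.15% held CACGTG, 4.68% the CACGTT letters and 1.06% a D-box. Among genes measured here with a listed promoter, CACGTG stood at any listed start in 10.8% of 703 genes called higher, 11.1% of 1091 called lower and 12.3% of 4803 not called. These shares count genes, some with several starts, and are not to be set against the 7.15% of single promoters. A match is a description of letters and no evidence of binding, and this window leaves out distal elements.

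Of the 12 largest rises, those outside the clock began with Slc1a3 and Adh7. Slc1a3, a glutamate and aspartate transporter, had log2 signals of 11.34, 11.21 and 10.89 in dKO and 6.32, 6.32 and 5.82 in control MEFs, a 31.8-fold rise (4.99 ± 0.18 SE, adjusted p = 1.3e-08) and the largest change of all called genes, with control MEFs above background on 2 arrays. Adh7, an alcohol dehydrogenase that also oxidises retinol, had 12.19, 12.15 and 12.29 in dKO and 8.09, 7.76 and 7.84 in control MEFs, a 19.9-fold rise (adjusted p = 7.08e-09). For both genes the gap between the groups was many times their spread. Cxcl15, Comp and Vit were at background on every control array. Cxcl15, a chemokine known from lung epithelium, averaged 9.02 ± 0.57 in dKO and 5.13 ± 0.12 in control MEFs (SD, n = 3 each), at least 7.05-fold higher (adjusted p = 6.83e-07). Comp, a cartilage matrix protein, averaged 9.39 ± 0.32 in dKO and 5.74 ± 0.28 in control MEFs, at least 9.12-fold higher (adjusted p = 2.4e-07). The matrix gene Vit averaged 8.29 ± 0.28 in dKO and 4.87 ± 0.17 in control MEFs, at least 4.26-fold higher (adjusted p = 5.98e-08).

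The remaining large rises were between 6.11-fold and 7.91-fold. Aqp5, a water channel of secretory epithelia, had 10.13, 10.33 and 10.70 in dKO and 7.78, 7.31 and 7.12 in control MEFs (7.91-fold, adjusted p = 8.87e-06). Xlr4a, an X-linked gene with near-identical copies that the probe may also read, was 7.72-fold higher (adjusted p = 3.81e-07). Fxyd6, a modulator of the sodium pump, was 7.36-fold higher (adjusted p = 1.22e-06, control MEFs above background on 1 array), and the collagen-binding proteoglycan Fmod 6.70-fold (adjusted p = 7.66e-06). Separate groups were a condition for entering the largest rises, so the lack of overlap in these genes is no result. Ugt1a6a, a glucuronosyltransferase whose probe may also read its sister genes of the Ugt1a cluster, had 9.44 and 9.18 in dKO replicates 1 and 2 but 7.31 in replicate 3, against 6.09, 6.23 and 5.78 in control MEFs, of which 1 array was above background. Its change of 2.61 ± 0.51 (SE, adjusted p = 0.00278) therefore rests mostly on 2 arrays.

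Wt1, a transcription factor of mesothelium, kidney and gonad, showed the largest fall. It had 5.82, 5.58 and 5.43 in dKO MEFs, at background on every array, and 9.52, 9.48 and 9.60 in control MEFs, at least 10.4-fold lower (adjusted p = 1.1e-08). Usp18, which restrains interferon signalling, had 8.51, 8.31 and 8.12 in dKO and 10.61, 11.47 and 10.87 in control MEFs (-2.67 ± 0.23 SE, adjusted p = 9.9e-06). Rsad2, the antiviral protein viperin, averaged 6.10 ± 0.54 in dKO and 8.74 ± 0.24 in control MEFs (SD, n = 3 each), with adjusted p = 2.81e-05 and 1 dKO array above background. Separate groups were a condition for entering the largest falls as well.

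Bmper, a secreted binder of bone morphogenetic proteins, had 7.98, 7.95 and 8.16 in dKO and 10.64, 10.53 and 10.80 in control MEFs (-2.62 ± 0.17 SE, adjusted p = 1.36e-06). Gsc, the homeobox gene goosecoid, averaged 6.59 ± 0.21 in dKO and 9.12 ± 0.06 in control MEFs (SD, n = 3 each). The amino acid transporter gene Slc7a8 had 8.55, 8.47 and 9.29 in dKO and 11.21, 11.19 and 11.21 in control MEFs, with dKO replicate 3 nearest to the controls. Ly86, a cell-surface partner of an immune receptor, fell 5.46-fold, and Upk1b, a uroplakin also used as a mesothelial marker, fell 5.32-fold, with 2 dKO arrays above background. Also at background on every dKO array were the secreted ribonuclease gene Rnase2a, at least 4.76-fold lower, the aspartic protease gene Napsa, at least 3.57-fold, the RNase P subunit gene Rpp25, at least 3.33-fold, and Wfdc18, at least 2.47-fold. Rnase2a belongs to a family of near-identical copies, so the gene behind its signal is uncertain. All 24 genes kept their direction and their call under each of 18 other settings. They were chosen as the largest called changes of these same arrays, so this was likely from the start and adds no support.

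**Figure D3:**
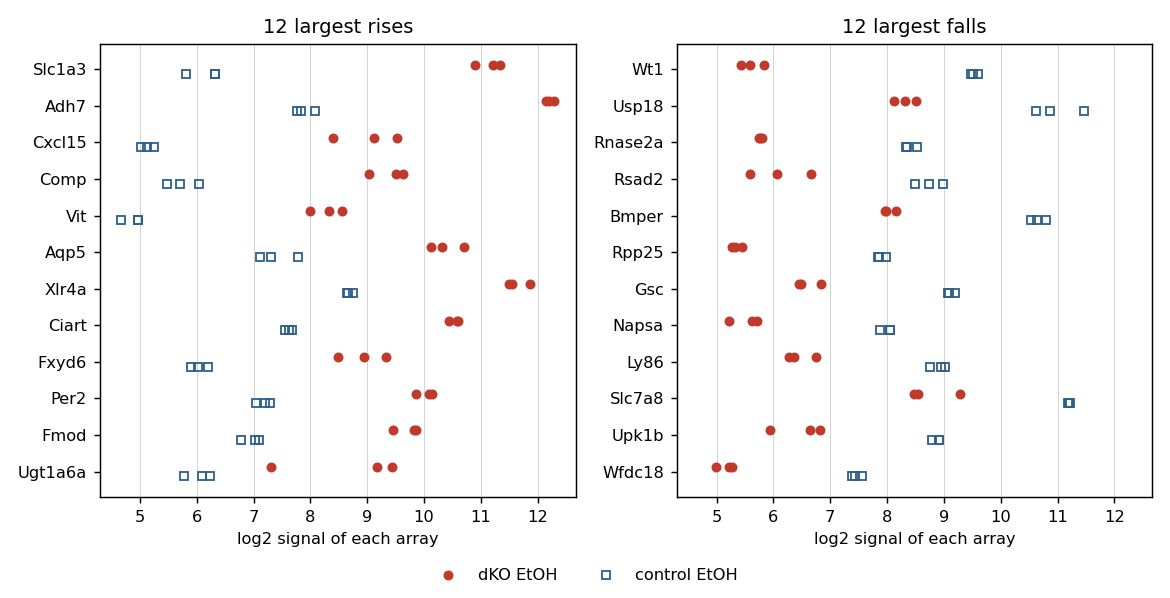
Log2 signal on each array for the 12 genes with the largest rises (left) and the 12 with the largest falls (right), taken from called genes with no overlap between groups. Red circles are the 3 dKO EtOH arrays and blue squares the 3 control EtOH arrays. In Ugt1a6a, dKO replicate 3 (7.31) lies far below the other dKO arrays (9.44 and 9.18).

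Targets of glucocorticoids, which rise when the receptor is active, did not move one way in the absence of hormone. Of 20 measured genes 3 rose and 5 fell, with a median of -0.02, close to that of all genes (-0.05). Tsc22d3, an anti-inflammatory effector, rose, averaging 12.10 ± 0.08 in dKO and 11.03 ± 0.02 in control MEFs (SD, n = 3 each; 1.07 ± 0.11 SE, adjusted p = 2.63e-05). The sulfotransferase gene Sult1a1 (0.86) and the metabolic kinase gene Pdk4 (0.76) rose as well. On the other side Fkbp5, a co-chaperone that dampens the receptor, had 6.56, 6.91 and 7.07 in dKO and 7.73, 7.83 and 7.75 in control MEFs (-0.92 ± 0.15 SE, adjusted p = 0.000783). Serpina3n, an acute-phase protease inhibitor gene, fell 2.40-fold (adjusted p = 0.000122), and Angptl4 (-0.89), Mt2 (-0.79) and Mt1 (-0.41) fell too. Sgk1 (0.01), Dusp1 (0.17) and Klf9 (0.32) were not called. The list thus held genes that moved in opposite directions. The deposited table gave 5 rises and 4 falls, and array weights gave 5 rises and 7 falls. With median scaling 3 rose and 7 fell, with a median of -0.17, where that of all genes was -0.25. Without dKO replicate 2 or control replicate 1 there were 3 rises and 6 falls.

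Among genes that make or handle the hormone signal, Hsd11b1, the enzyme that regenerates active glucocorticoid inside the cell, averaged 7.14 ± 0.19 in dKO MEFs and was at background in control MEFs (5.72 ± 0.20, SD, n = 3 each), at least 1.92-fold higher (adjusted p = 0.000141). The co-chaperone gene Ptges3 rose by 0.47 (adjusted p = 0.0174), a call lost with median scaling (0.328), without dKO replicate 1 or 2, without control replicate 2 or 3 and without the 3 arrays, and Fkbp4, Hsp90aa1, Hspa8, Stip1, St13 and Ncoa1 were not called. Nr3c1, the receptor gene itself, had its probe at background on all 6 arrays. Inflammatory mediators were split, with 3 of 12 higher and 2 lower. The collagenase and stromelysin genes Mmp13 (3.37-fold, adjusted p = 2.98e-06) and Mmp3 (3.46-fold, adjusted p = 2.98e-06) and the macrophage growth factor gene Csf1 (1.76-fold) rose, while Irf1 (-0.60) and Nfkb2 (-0.60) fell, and Il6 (0.24), Tnf (-0.09), Icam1 (-0.33) and Vcam1 (-0.30) did not pass. The falls numbered 4 without dKO replicate 3, 6 with median scaling, and 1 without dKO replicate 1 or without the 3 arrays.

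Genes of the interferon response fell together: 14 of 20 measured fell and 0 rose, against 16.7% of all genes called lower. Their median was -1.23 (-1.11 where a gene at background in either group counts at its bound), against -0.05 for all genes. The list's median deviation from the control mean was -1.04, -1.08 and -1.27 on the 3 dKO arrays. Oasl2, an antiviral oligoadenylate synthetase-like gene, averaged 7.98 ± 0.24 in dKO and 10.27 ± 0.25 in control MEFs (SD, n = 3 each, adjusted p = 8.87e-06). Irf7, the master regulator of type I interferon genes, was at background on every dKO array (5.53 ± 0.12 against 7.21 ± 0.34 in control MEFs, SD, n = 3 each), at least 2.08-fold lower. It entered through the control arrays alone, so it had to differ. Isg15, a ubiquitin-like modifier, fell 2.91-fold. The members that did not pass included Ifit3 (-0.38), Ifit2 (-0.34), Ifitm3 (-0.30) and Zbp1 (0.01).

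Presentation on class I molecules, which interferon is known to raise, was also lower, with 7 of 11 genes down, 0 up and a median of -0.64. H2-D1, a class I heavy chain gene, had 8.59, 8.51 and 8.22 in dKO and 9.57, 9.89 and 9.96 in control MEFs (-1.37 ± 0.14 SE, adjusted p = 2.63e-05), and H2-K1, above background on 1 dKO array, fell by 0.99. Class I genes are alike in sequence, so their probes may share signal. Psmb9 and Psmb8, catalytic subunits of the immunoproteasome, fell 2.60-fold and 2.27-fold, the activator subunit gene Psme1 1.73-fold, and the light chain gene B2m (-0.24) did not pass.

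Chemokine genes had 7 of 13 lower and 2 higher, with a median of -0.62 (-0.55 where a gene at background in either group counts at its bound). Cxcl12, which attracts leukocytes and stem cells, had 12.19, 12.49 and 12.14 in dKO and 14.05, 14.01 and 14.50 in control MEFs at its brightest probe (-1.91 ± 0.16 SE, adjusted p = 6.52e-06), but 2 further probes gave -0.68 and -0.43 without a call, and with median scaling the change was -0.91 and the call was lost (adjusted p = 0.0591). Ccl5 fell at least 2.97-fold and Cxcl9 at least 1.46-fold, both to background, and Ccl9 fell 2.20-fold. Cxcl1, a neutrophil attractant, rose 3.00-fold, with 8.89 and 8.72 in dKO replicates 1 and 2, 7.86 in replicate 3, and 6.77, 6.93 and 7.03 in control MEFs. Cx3cl1, the membrane-bound chemokine fractalkine, was raised on all 3 dKO arrays (9.37, 9.35 and 9.46, against 8.21, 8.05 and 8.21 in control MEFs, adjusted p = 0.00014).

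Markers of macrophages moved with these groups. Of 12 measured markers 11 fell and 0 rose, with a median of -0.66, and their summed linear signal was 103201 to 126162 on the dKO arrays and 167515 to 178627 on the control arrays. The falls numbered 8 without control replicate 2 or 3 and 9 without dKO replicate 2. Laptm5, a lysosomal protein of blood cells, had 14.64, 14.62 and 14.83 in dKO and 15.68, 15.59 and 15.57 in control MEFs (-0.92 ± 0.09 SE, adjusted p = 2.18e-05). The receptor gene Cd14 fell 1.99-fold, Tyrobp 1.88-fold and Adgre1, which encodes F4/80, 1.84-fold, whereas Lyz2, the bright lysozyme gene, was the 1 marker that did not pass (-0.18 ± 0.16 SE, adjusted p = 0.407). Ptprc, the general leukocyte marker, was at background on every dKO array and on all but 1 control array. In bulk samples fewer cells of a type and less RNA per cell cannot be told apart, and the part of the macrophage markers in the falls of interferon, class I and chemokine genes was not tested.

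Genes of DNA replication and mitosis were lower, with 13 of 20 down, 0 up and a median of -0.47. The falls numbered 9 without dKO replicate 1, 10 without dKO replicate 2 or control replicate 1, and 14 with 1 rise without dKO replicate 3. With median scaling 16 fell, and with array weights 14 fell and 2 rose. Mcm5, a subunit of the replicative helicase, had 11.65, 11.58 and 11.72 in dKO and 12.61, 12.57 and 12.66 in control MEFs (-0.96 ± 0.11 SE, adjusted p = 5.22e-05). Tk1, which makes thymidine phosphate, fell 1.94-fold, the ribonucleotide reductase gene Rrm1 1.64-fold and the mitotic kinase gene Aurka 1.76-fold. Pcna (-0.47), Top2a (-0.26), E2f1 (-0.28) and the cyclin E genes Ccne1 (0.27) and Ccne2 (0.41) did not pass. Of 16 CDK inhibitors and p53 targets, 3 rose and 2 fell: the DNA damage gene Gadd45a (0.84), the stress sensor gene Sesn2 (0.76) and the tumour suppressor locus Cdkn2a (0.48) rose, and Cdkn2d (-0.46) and Cdkn2c (-0.52) fell. Cdkn1a (-0.28) and Mdm2 (-0.06), the best known p53 targets, were not called. There were 0 rises and 2 falls without the 3 arrays, 4 rises and 4 falls without dKO replicate 3, and 1 fall without control replicate 1 or 2. With median scaling 2 rose and 5 fell, and the list's median of 0.12 was -0.12.

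Of 17 measured immediate early and stress genes 5 rose and 6 fell. The rises included Trib3, Atf4, Ddit3 and Asns, which are known to respond when amino acids run short or proteins misfold. Trib3 had 8.35, 8.50 and 8.27 in dKO and 6.71, 6.38 and 6.59 in control MEFs (1.81 ± 0.14 SE, adjusted p = 6.14e-06). Atf4 had 12.51, 12.57 and 11.46 in dKO MEFs, against 10.99 ± 0.09 in control MEFs (SD, n = 3; 2.28-fold, adjusted p = 0.0063), again with dKO replicate 3 nearest to the controls. The falls were those of the transcription factors Atf3 (-1.24), Jund (-1.05, above background on 1 dKO array), Fos (-0.94), Egr2 (-0.55), Jun (-0.32) and Egr1 (-0.30), while the immediate early gene Ier3 (0.36) rose. The falls depended on single arrays: without dKO replicate 1, control replicate 2 or control replicate 3 there were 2, and without dKO replicate 2 or the 3 arrays there were 3.

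Enzymes of detoxification rose, 10 of 19 against 1 lower, with a median of 0.43. Nqo1, a quinone reductase, had 11.93, 11.77 and 11.72 in dKO and 9.81, 9.81 and 9.45 in control MEFs, a 4.34-fold rise (adjusted p = 1.96e-05). Aldh3a1, an aldehyde dehydrogenase, went with a control group at background and was at least 3.35-fold higher (7.94 ± 0.37 in dKO against 5.58 ± 0.55 in control MEFs, SD, n = 3 each, adjusted p = 0.000141). The glutathione transferase gene Gstt1 rose 2.36-fold and Gsta4 1.47-fold, and the extracellular superoxide dismutase gene Sod3 rose by 1.18 on the log2 scale. Aldh1a1 (-0.58) was the only member lower, and Gclm (0.01), Srxn1 (0.13) and Txnrd1 (0.26) did not pass. With median scaling the count was 6 higher and 3 lower, with a median of 0.18 and Gsta4 not called, and without dKO replicate 3 there were 2 falls.

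Genes of the skeleton and of fibroblasts were raised. Of 5 measured cartilage and bone markers 4 rose, with a median of 1.75, and their summed linear signal was 1735 to 2542 on the dKO arrays and 461 to 519 on the control arrays. Comp, counted among these rises, entered through the dKO arrays alone, so it had to differ. Its signal is part of the summed signal of these markers, which therefore supports nothing by itself. Besides Comp, the cartilage collagen gene Col2a1 had 9.43, 10.04 and 10.20 in dKO and 7.65, 7.38 and 7.29 in control MEFs (5.46-fold, adjusted p = 6.14e-06). The bone transcription factor gene Sp7 rose 3.36-fold, and Bglap, which encodes osteocalcin, 1.66-fold. Control MEFs had Sp7 above background on 2 arrays. The Bglap call was lost without dKO replicate 1 (adjusted p = 0.07), control replicate 1 (0.0522), control replicate 2 (0.056) or the 3 arrays (0.0849), which leaves 3 of 5 markers higher. The cartilage regulator Sox9 (0.55, adjusted p = 0.0651) did not pass, and the defining markers Acan and Ibsp were at background on all 6 arrays. Fibroblast markers had 7 of 12 higher and 1 lower, with a median of 0.59 and summed linear signals of 99656 to 109237 in dKO and 64669 to 68461 in control MEFs. Thy1, a surface marker of mesenchyme, had 14.66, 14.90 and 15.03 in dKO and 13.69, 13.80 and 14.06 in control MEFs (2.02-fold), the platelet-derived growth factor receptor gene Pdgfra rose 1.93-fold and Vim 1.47-fold, while Dcn (-0.79) fell. Both the fibroblast markers, which define the labelled cell type, and the macrophage markers above were measured in both groups.

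Matrix genes as a whole went both ways, with 6 of 24 higher and 4 lower and a median of -0.02. Postn, an adhesion protein of the matrix, was at background in control MEFs (7.07 ± 0.23 in dKO against 5.10 ± 0.31, SD, n = 3 each), at least 1.83-fold higher, and Thbs1 (1.43), Col1a2 (0.76), Ogn (0.64) and Col3a1 (0.62) rose beside Fmod. Elastin (Eln, -0.86), Dcn (-0.79), Thbs2 (-0.58) and Col6a1 (-0.35) fell. This list differed between the dKO arrays, with median deviations from the control mean of -0.16, 0.02 and 0.29 on replicates 1, 2 and 3: without the 3 arrays 6 rose, 1 fell and the median was 0.29, there were 9 falls without dKO replicate 3, and without dKO replicate 1 or 2 or without control replicate 1 or 2 there were 2 falls. With median scaling 5 rose and 9 fell. Of 15 matrix proteases and inhibitors 3 rose and 3 fell, near the shares of all genes, and with median scaling 2 rose and 5 fell. Mmp2, which cuts basement membrane collagen, had 12.29, 12.39 and 12.39 in dKO and 13.64, 13.75 and 13.87 in control MEFs (-1.40 ± 0.13 SE, adjusted p = 1.45e-05). The macrophage elastase gene Mmp12 fell 1.95-fold, whereas Timp1 (-0.03), Timp3 (0.03) and Mmp14 (0.07) stayed within the error of the fit.

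Of 12 Wnt pathway genes 6 rose and 1 fell, with a median of 0.43. Sfrp1, an antagonist that binds Wnt proteins, had 10.48, 10.45 and 10.11 in dKO and 8.52, 8.87 and 8.76 in control MEFs (3.10-fold, adjusted p = 6.35e-06). Dkk3 rose 2.26-fold and the intracellular antagonist gene Nkd2 2.13-fold, while the ligand gene Wnt2 fell 1.82-fold. The agonist gene Rspo2 (1.10) rose as well, so antagonists and an agonist were raised together. In the BMP and TGF-beta pathway 4 of 19 rose and 3 fell: the ligand genes Bmp4 (2.17-fold) and Inhba (0.79), the antagonist gene Nog (at least 1.59-fold, from background in control MEFs) and Fstl1 (0.39) rose, and the latent binding protein gene Ltbp1 (-1.26), Inhbb (-1.03) and Id2 (-0.34) fell. With median scaling 2 rose and 6 fell. Smooth muscle genes had 4 of 13 higher, among them Ccn2 (0.77) and Cald1 (0.83), and 1 lower, but 2 higher with median scaling and without control replicate 1, control replicate 3 or the 3 arrays, and 2 lower without dKO replicate 3. The intermediate filament gene Des fell 4.19-fold, with 8.30, 8.42 and 8.57 in dKO and 10.36, 10.69 and 10.45 in control MEFs. Acta2 (-0.04) and Tagln (0.14) did not pass.

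**Figure D4:**
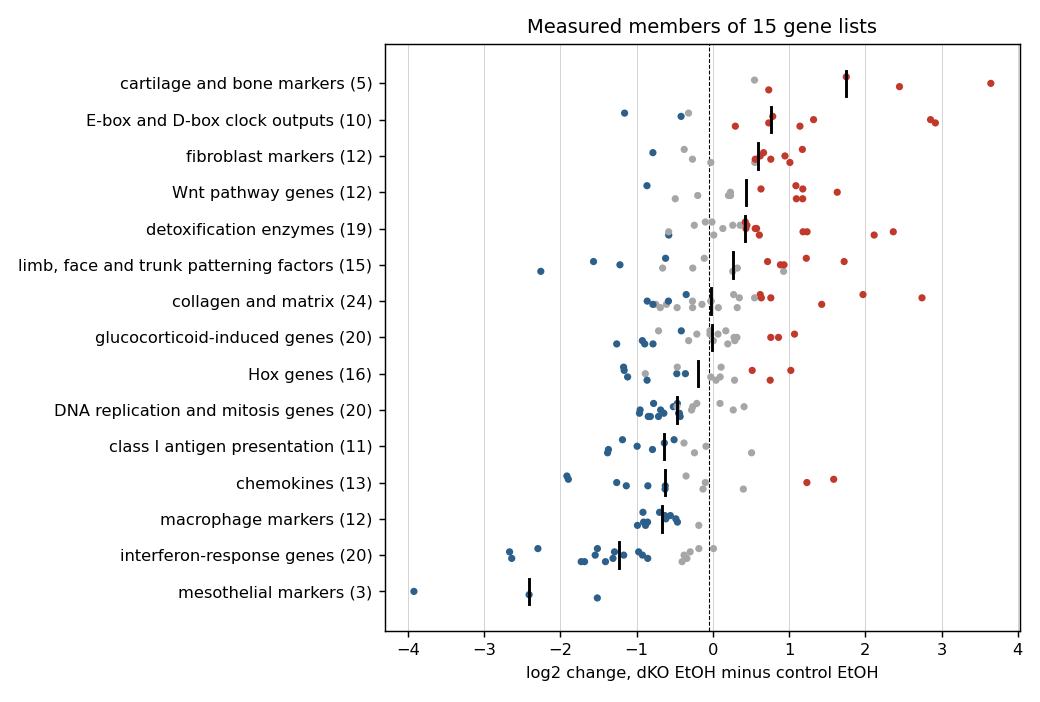
Change between dKO and control MEFs in EtOH (horizontal axis, log2) for each measured member of 15 gene lists, with the number of measured members in brackets. Red points were called higher, blue points called lower and grey points not called; thick bars are list medians and the dashed line is the median of all genes (-0.05). Interferon-response genes and macrophage markers lie almost wholly left of the line, cartilage and bone markers wholly right of it.

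Factors that set position in the embryo separated the genotypes in both directions. Of 16 measured Hox genes 6 fell and 3 rose. Hoxa5 had 10.97, 10.94 and 10.92 in dKO and 12.21, 12.02 and 12.09 in control MEFs (-1.16 ± 0.10 SE, adjusted p = 7.85e-06), and Hoxc6 (-1.12), Hoxa7 (-1.17), Hoxd8 (-0.86), Hoxb5 (-0.47) and Hoxc9 (-0.36) fell as well. Hoxd10 (1.02), Hoxb9 (0.75) and Hoxb6 (0.52) rose. Without the 3 arrays 4 fell and 1 rose. Of 15 limb, face and trunk factors 5 rose and 4 fell. Their median was 0.26, 0.17 where a gene at background in either group counts at its bound, and -0.01 with median scaling. Among the rises, Msx1, Hand2 and Meox2 entered through the dKO arrays alone, so they had to differ. Msx1, a homeobox gene of limb and face mesenchyme, was at background in control MEFs and at least 2.78-fold higher in dKO (7.69, 7.90 and 7.43, against 5.99, 5.97 and 5.90), Hand2 was at least 1.21-fold and Meox2 at least 1.12-fold higher, both from background, and Tbx3 (0.89) and Twist1 (0.72) rose. En1, which patterns ventral limb and dermis, fell 4.78-fold, with 6.18, 6.10 and 6.69 in dKO and 8.53, 8.45 and 8.77 in control MEFs (adjusted p = 0.000287). Gata6 fell 2.96-fold, and Foxd1 (-1.22, 2 dKO arrays above background) and Twist2 (-0.62) fell too.

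Markers of other cell types also differed. All 3 measured mesothelial markers fell (Wt1, Upk1b and the keratin gene Krt19, -1.52 ± 0.25 SE, adjusted p = 0.000887, 2 dKO arrays above background), and their summed linear signal was 171 to 250 on the dKO arrays and 1406 to 1434 on the control arrays, whereas the markers Upk3b, Msln, Lrrn4 and Gpm6a were at background on all or all but 1 array. Wt1 entered through the control arrays alone, so it had to differ. Its signal is part of the summed signal of these markers, which therefore supports nothing by itself. Of 4 measured endothelial markers 2 fell, Flt1 (3.53-fold) and Emcn (2.05-fold), while Pecam1, Cdh5 and Kdr were at background on every array. Among 4 neural markers Stmn2, a microtubule destabiliser, rose 3.81-fold, with 8.95, 9.21 and 9.44 in dKO and 7.32, 7.21 and 7.29 in control MEFs. Nes rose (0.63) and Ncam1 fell (-0.97), calls that were lost with median scaling and without dKO replicate 2 or control replicate 3 for Nes and without the 3 arrays for Ncam1. Of the 3 skeletal muscle markers Acta1 (1.53) and Tnnt1 (0.46) rose and Des fell, with Myod1 and Myog at background. With median scaling, and without dKO replicate 1, control replicate 1, control replicate 2 or the 3 arrays, Tnnt1 was not called and 1 of the 3 rose. The part of cell composition in the results above was not tested.

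Growth factors and their binding proteins changed on several axes. Igf2, the imprinted embryonic growth factor gene, had 10.81, 11.38 and 10.72 in dKO and 12.84, 12.53 and 12.77 in control MEFs, a 3.35-fold fall (adjusted p = 0.000172), and Igf1 fell 1.49-fold. The binding protein gene Igfbp6 rose 3.44-fold, with 13.11, 13.28 and 13.19 in dKO and 11.37, 11.37 and 11.50 in control MEFs (adjusted p = 3.89e-06), Igfbp4 rose 1.88-fold, and Ghr (0.78) and Igfbp2 (0.55) rose. Igfbp3 had 11.13 and 10.91 in dKO replicates 1 and 2 but 9.34 in replicate 3, against 8.89, 9.05 and 8.79 in control MEFs (adjusted p = 0.0168). Without dKO replicate 1, dKO replicate 2 or control replicate 3 the rises in this list of 12 numbered 3 in place of 5. Besides Igf2, the imprinted genes Dlk1 (3.42-fold) and Slc38a4 (3.56-fold, 2 dKO arrays above background) fell and Mest rose (2.50-fold, 2 control arrays above background), among 9 measured, with 3 rises without dKO replicate 3 and 5 falls with median scaling. Of the paracrine factors 5 of 11 rose, with Fgf10 at 10.08, 10.20 and 10.41 in dKO and 9.34, 9.17 and 9.16 in control MEFs (2.01-fold), and Vegfa (0.86), Hbegf (0.76), Pdgfc (0.70) and Fgf7 (0.51) beside it. The lymphatic growth factor genes Vegfd (-1.20) and Vegfc (-0.72) and the neuregulin gene Nrg1 (-0.59) fell, a count of 3 that was 1 without dKO replicate 2 or the 3 arrays. The median of this list was 0.12, and -0.09 with median scaling.

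Of 11 adipogenesis genes 4 fell, with a list median of -0.29, among them the preadipocyte factor Dlk1, the lipid droplet gene Plin2 (-0.61) and the lipase gene Lpl (-0.42), and the desaturase gene Scd1 (0.41) rose. The falls were 2 without dKO replicate 2 or control replicate 2 and 1 without control replicate 3, and with median scaling 5 fell and 0 rose, with a median of -0.53. Without the 3 arrays 4 rose. Pparg (0.15), the master factor of fat cells, did not pass. Cholesterol synthesis had 4 of 14 higher, including the feedback sensor Insig1 (0.81) and the regulator Srebf2 (0.39), and 1 lower, but with median scaling 1 was higher and 5 lower, and leaving out single arrays gave 2 to 6 higher, with 6 higher and 3 lower without dKO replicate 3. In hypoxia and glycolysis, Vegfa rose and the carbonic anhydrase gene Car9 (-1.08) and Egln3 (-0.51) fell among 14, with 4 rises without dKO replicate 3, 2 rises without control replicate 1, 1 fall without the 3 arrays and 5 falls with median scaling.

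The same genotypes were measured on other arrays after Dex. There 1615 genes (20.0%) were called, 815 higher (10.1%) and 800 lower (9.93%). Of the 2259 genes called in EtOH, 1856 (82.2%) had the same sign in Dex, 915 (40.5%) were called in the same direction and 37 in the opposite one. Over all genes 63.5% had the same sign. The median size of the change was 0.67 in EtOH and 0.36 in Dex over these 2259 genes, a comparison that choosing them in EtOH tilts. Across the called genes the 2 changes correlated with r = 0.784, a description, since genes are not independent replicates and cultures of a genotype may be shared between treatments. Ciart (3.40 in Dex), Per2 (3.40), Slc1a3 (4.91), Adh7 (5.01), Wt1 (-3.45) and Comp (3.84) changed in the same direction under Dex, where Slc1a3 and Comp were at background on every control array. The differences between treatments did not pass for Ciart (adjusted p = 0.138), Per2 (0.127) and Adh7 (0.0745), which does not show that they were alike.

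The test of the difference between treatments was passed by 171 genes (2.12%), of which 103 (1.28%) had the more positive genotype difference in Dex and 68 (0.844%) in EtOH. This count was 1227 without dKO EtOH replicate 3 and 25 to 39 without any other single EtOH array. Dbp differed by 3.02 ± 0.11 (SE) between the genotypes in Dex and by 1.32 ± 0.11 in EtOH, a difference of 1.70 (adjusted p = 0.000524). Nr1d2 differed by 2.49 in Dex and 1.14 in EtOH (adjusted p = 0.00192). For both genes the gap between the genotypes was wider with the hormone present, a call kept under 17 of 17 other settings. Tef differed by 1.70 in Dex and 0.79 in EtOH, and Nr1d1 by 1.46 in Dex and -0.32 in EtOH. Arntl, at -1.85 in Dex and -1.27 in EtOH, did not pass this test (adjusted p = 0.102). In the interferon list 10 of 20 genes were lower and 1 (Ifit3, 0.69) higher in Dex, with a median of -0.62, and among macrophage markers 9 of 12 were lower and 0 higher, with a median of -0.67, where 9.93% of all genes were lower.

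Called genes lay on each of the 20 chromosomes compared, and no test was made between chromosomes. On chromosome 15, 80 of 344 measured genes were higher in dKO MEFs (23.3%), where 11.3% of all genes were, and its median change of 0.11 was the highest of the 20 chromosomes. Its median deviation from the control mean was 0.08, 0.08 and 0.17 on dKO EtOH replicates 1, 2 and 3, and 0.16, 0.16 and 0.15 on the 3 dKO Dex arrays, measured from the control Dex mean. With median scaling it was -0.09, again the highest, where the median of all genes was -0.25. Chromosome 8 lay at the other end, with 7.05% of genes higher and a median of -0.13. The genes with the largest rises on chromosome 15 included Slc1a3, Aqp5, Col2a1, the limb regulator Osr2 (2.15), the acid-sensing channel gene Asic1 (at least 2.05-fold), Igfbp6, Sp7, the tendon factor Scx (1.48) and the pyrophosphate exporter gene Ank (1.45). Cry1 is on chromosome 10 and Cry2 on chromosome 2. Around each, 50 measured genes were taken, as many before as after it by start position. Of these, 17 were called in each case (34%), against 28.0% of all genes. Their median changes were -0.08 near Cry1 and -0.18 near Cry2, against -0.05 for all genes.

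**Figure D5:**
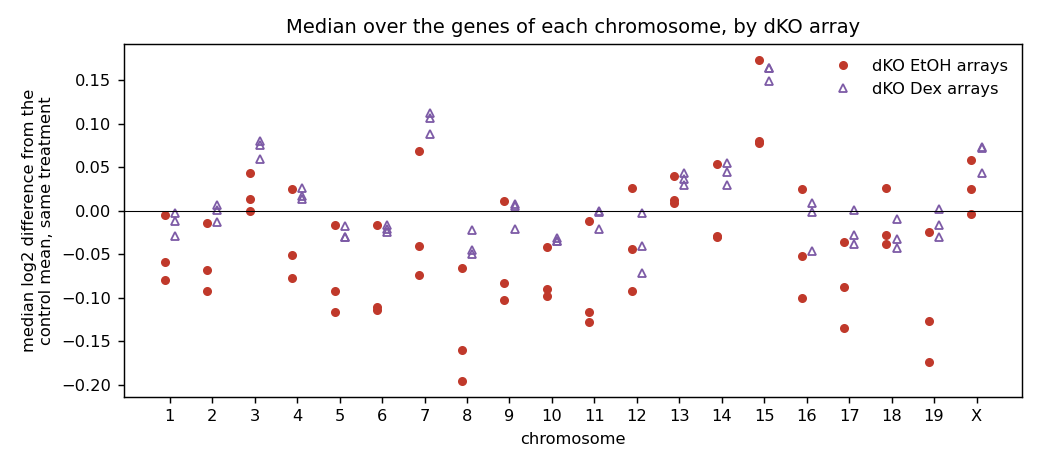
Median log2 difference from the control mean of the same treatment over the measured genes of each chromosome (horizontal axis), for the 3 dKO EtOH arrays (red circles) and the 3 dKO Dex arrays (purple triangles). Chromosome 15 lies highest, with all 6 dKO arrays above 0 there.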

How the data were processed

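Total RNA of 12 samples was read on Illumina bead arrays. GenomeStudio is named, without a version, in the submitters' processing notes. Per the file headers, the deposited intensities are mean bead signals per probe, and the deposited detection p-values compare each probe with negative control beads. According to the labels, RNA was extracted by Trizol followed by RNeasy and copied into cRNA carrying biotin. A deposited table of normalized intensities, made by steps that no source used here names, served only as an alternative.

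Signals were background corrected with nec of limma 3.58.1 (R 4.3.3, offset 16), quantile normalized over 12 arrays and brought to log2. Probes took platform symbols, updated by Entrez identifier for 23962 of 23978; 1719 had none. Each gene was read from its member probe with the highest mean over the EtOH arrays. Of 524 called genes with further member probes, 80.9% had all probes in 1 direction, and 8 had a further probe called the other way. The 12 arrays were fitted together with a mean for each group and moderated by empirical Bayes, with Benjamini-Hochberg adjustment over 8058 genes. The groups were treated as independent, so p-values measure the spread between these replicates, and their precision is limited by the number of arrays. The fit was tested on simulated data. The deposited labels give same-numbered replicates. Residuals of same-numbered dKO and control EtOH arrays correlated at 0.0283, 0.13 and 0.134. For replicates 2 and 3 this was the highest value with any control array, for replicate 1 it was not. Residuals of 3 arrays around their own mean depend on each other, so these values cannot decide whether the arrays were paired. The main fit took no pairing, and counts with a replicate block are given below.

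A gene at background on all arrays of a group is given as at least N-fold: the other group's mean less the group's mean with each array raised to its lowest above-background value. The members, the 36 gene lists (410 of 695 entries measured) and the tests were chosen with earlier results of these data known. Named genes are the 12 largest changes each way, out of called genes with separate groups, fixed clock and receptor genes, and up to 4 members of smallest p per list; further list members and genes of chromosome 15 were named after their values were seen. Promoters are RefSeq sequences of GRCm38.p6. For the array annotation, the build was not given in the sources used here.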

Additional observations from a re-analysis of the deposited data

Results flagged for a closer look

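For 20 of the 144 genes named or held for the lists the interaction term of the limma fit passed (Benjamini-Hochberg over 8058 genes). Over all genes 2.12% passed. Apart from the fixed genes, the 144 were chosen by their EtOH change, which enters the interaction with the opposite sign. The choice thus tilts the interaction towards changes smaller in Dex, and the count of 20 is not to be read against that share. Values are the log2 genotype difference in Dex less that in EtOH. Of these calls 4 were kept under all of 17 other settings, those of Dbp, Nr1d2, Rpp25 and Tnnt1, and that of Rnase2a was lost without background correction alone. The other 15 were lost with the replicate block, and 14 of the 20, all but Igfbp6 among those 15, without at least 1 single array.

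Of clock outputs, Dbp (1.70, adjusted p = 0.000524) and Nr1d2 (1.35, adjusted p = 0.00192) had the wider rise in Dex, as had the muscle gene Tnnt1 (1.59) and Igfbp4 (0.75). Falls that were smaller in Dex were those of Bmper (1.37), Oasl2 (1.33), Serpina3n (1.13), Ccl9 (0.92), the replication genes Tk1 (0.87) and Mcm5 (0.70), and the proteasome activator gene Psme1 (0.78). Mmp12 (-0.86) fell further in Dex. The rises of Igfbp6 (-1.24) and of the stress gene Trib3 (-0.99) were smaller in Dex, and Sesn2 (-1.13) and Srebf2 (-0.59), higher in dKO MEFs in EtOH, were not called in Dex. Of the remaining genes, Rpp25 (1.88) and Rnase2a (1.44) were at background on every dKO EtOH array, Wfdc18 (1.06) on every dKO array of both treatments, and Aldh3a1 (1.89) on every control EtOH array. Their EtOH differences are bounds, so these 4 fitted values are not exact sizes, and whether the difference is wider or narrower in Dex is not read from them. No explanation was tested.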

How the results depend on the processing

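The count of 2259 genes in EtOH lay between 1852 and 2472 without background correction, in the deposited table, with an offset of 50, a detection p under 0.05, no filter, or eBayes with trend and robust. It was 2024 with the EtOH arrays alone. It moved to 4135 with array weights (1676 higher, 2459 lower), and ranged from 1484 to 3135 without single replicates (566 to 1212 higher, 909 to 1923 lower). It was 1437 without the 3 arrays (612 higher, 825 lower), where dKO EtOH rests on replicate 3. Median scaling gave 501 higher and 2612 lower. None of the 2259 was called the opposite way under any of these. All probes as separate items gave 2930 calls among 11470.

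The count in Dex was 2879 with array weights. The interaction was called for 280 genes without background correction, 708 with median scaling, 290 in the deposited table, 58 without a filter, 1854 with array weights, 58 without the 3 arrays and 25 to 1227 without single replicates. The replicate block gave 1817 genes in EtOH and 24 for the interaction.

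Of 144 genes named or held for the lists, 111 kept direction and call under all 18 settings. Those that turned were not called: Eif2s3y (-0.23 with median scaling), Kdm5d (-0.18 to 0.084 without single replicates, and 0.024 without the 3 arrays), Eng (0.10) and Cd3e (0.22), both without the 3 arrays. No cause was tested. Probes above background began at log2 signals of 6.09 to 6.25 on the EtOH arrays. A group at background on all its arrays is given as a bound, while groups above background on 1 or 2 arrays, such as the control groups of Slc1a3, Fxyd6 and Ugt1a6a and the dKO group of Krt19, have fitted folds that rest in part on values at the floor. With array weights several lists had more calls: 6 higher and 5 lower for CDK inhibitors and p53 targets, 5 lower for inflammatory mediators, 9 lower for matrix genes, 6 lower for proteases, 3 lower for smooth muscle, 4 higher and 4 lower for hypoxia, 4 lower for cholesterol synthesis and 5 lower for the BMP and TGF-beta pathway.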
